A study of Mus musculus with 2 samples.

Results

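The strong promoter peaks are 354 places at gene starts where IRF4 gave a high ChIP-seq signal in CH12.LX, a B-cell lymphoma line of the mouse. They were taken from the authors' optimal list of 44058 peaks on mm10, made by irreproducible discovery rate (IDR) analysis, which compares the ranks of peaks between lists. Members were chosen by their measured signal, from 100 to below 250, among peaks on chromosomes 1 to 19 and X whose summit was no more than 1 kb from a RefSeq protein-coding gene start. Of 7637 promoter peaks, 354 met this rule, 21 were stronger and 7262 were weaker. The signal is the value the authors' caller gave each peak, on a scale that is not stated, so it ranks peaks within a list.

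The study holds 1 group, CH12.LX cells with no treatment named, in 2 biological replicates immunoprecipitated with an antibody to IRF4. CH12.LX is an immortalized line from a female mouse of the strain B10.H-2aH-4bp/Wts, much used in work on antibody class switching. The labels do not say whether the replicates were separate cultures, and with 1 line and 1 antibody no value here compares conditions. Intervals below cover counts of peaks or genes, not the spread between cultures, and the depth per replicate is unknown.

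IRF4, a member of the interferon regulatory factors, controls transcription in B cells, which need it for activation, class switching and plasma cell formation. It binds DNA weakly alone and mostly sits beside a partner. With the ETS factors PU.1 or SPIB it occupies an ETS-IRF composite element (EICE), with BATF and JUN an AP-1-IRF composite element (AICE), and at high protein levels it can occupy the interferon-stimulated response element (ISRE) on which other IRF proteins act.

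The sequences under the strongest of these peaks show the elements searched for. Sequence was read at mm9 summits, from a second list of 27671 peaks the authors made on that build, at the gene of the same name. The EICE was searched as an ETS core and an IRF core with 2 free bases between them, the ISRE as a pair of IRF cores spaced alike, and the AICE as an IRF core beside an AP-1 site, either adjoining or 4 bases apart. These composite patterns are described in words, and the capitals in the stretches below show their matches. Both strands were searched within 50 bp of the summit, and matches of different elements may overlap. Stretches from 7 of the stronger members with an element are given first, each 5′ to 3′ on the strand of its gene, with element matches in capitals. The mm9 and mm10 summits lay at the same site, except that Ppp1r15b had no RefSeq promoter sequence to check this by. Its summit lay 365 bp upstream of the gene start on mm9 and 368 bp upstream on mm10. An EICE or ISRE run that begins with TTTC is the element read on the opposite strand. Stretches are shortened where an exon begins.
Tnfrsf1b: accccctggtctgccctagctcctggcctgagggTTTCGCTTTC
H2-DMb2: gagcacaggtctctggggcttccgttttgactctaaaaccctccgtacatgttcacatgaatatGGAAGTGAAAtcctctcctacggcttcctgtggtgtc
Trim25: tcctgttcagTTTCGATTCCttcctcgctg
Gpr18: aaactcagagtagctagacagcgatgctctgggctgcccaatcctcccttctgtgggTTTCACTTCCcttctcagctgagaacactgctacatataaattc
Psmb8: gtactgtggcTTTCGCTTTCACTTCCttgt
Ube2v1: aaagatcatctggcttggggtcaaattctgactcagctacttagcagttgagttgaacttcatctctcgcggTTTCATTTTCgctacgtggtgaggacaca
Ppp1r15b: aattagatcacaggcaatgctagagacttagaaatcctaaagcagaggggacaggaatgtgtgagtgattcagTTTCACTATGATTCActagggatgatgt
Tnfrsf1b (chr4:144836774-144836817, minus strand) encodes a TNF receptor and holds an ISRE. Ube2v1 (chr2:167457800-167457900, minus strand), which encodes a ubiquitin-conjugating enzyme variant, also holds one. The stretches at H2-DMb2 (chr17:34280061-34280161, plus strand), Trim25 (chr11:88860703-88860732, plus strand) and Gpr18 (chr14:122315673-122315773, minus strand) hold an EICE. At Psmb8 (chr17:34335280-34335309, plus strand) an ISRE and an EICE overlap in 1 unbroken run of capitals. The stretch at Ppp1r15b (chr1:135027305-135027405, plus strand) holds the AICE with a gap of 4 bases.

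A pair of windows from peaks as strong held none of these elements, and they are given for contrast.
Abcf2: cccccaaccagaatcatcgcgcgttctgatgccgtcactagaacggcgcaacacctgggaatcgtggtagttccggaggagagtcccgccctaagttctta
Hivep1: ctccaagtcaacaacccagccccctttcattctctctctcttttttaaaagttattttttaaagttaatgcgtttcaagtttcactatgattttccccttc
Abcf2 (chr5:24083308-24083408, minus strand) encodes an ATP-binding cassette protein, and Hivep1 (chr13:42146831-42146931, plus strand) a zinc finger protein that binds enhancers. A missing match says only that these letters are not in the window.

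The rule used the signal, so the following values describe the choice and test nothing. The signal of the 354 peaks ran from 100.1 to 239.9 with a median of 127.2, against a median of 36.3 over the weaker promoter peaks. All 354 had a summit within 100 bp in the relaxed list of each replicate, and all 354 were in the conservative IDR list. In replicate 1 the lowest, median and highest signals were 26.5, 53.7 and 130.9, and in replicate 2 they were 48.1, 76.6 and 152.7. The bounds apply to the signal of the optimal list, called the pooled call below. Replicate values come from other lists and are not to be set against the bounds or a pooled value. Replicate 2 was the higher at 315 of the 354 peaks, with a median log2 ratio of replicate 2 to replicate 1 of 0.51 (SD 0.40 over peaks). The weaker peaks leaned the same way, with a median log2 ratio of 0.55 over the 5440 that had a summit in both replicates, which was 74.9% of them. In the conservative list were 65.3% of the weaker peaks.

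Just above the upper bound lay Atp6v0a1 at 259.0, Socs1 at 255.7 and Tlr4 at 251.7, and just below it Rabgap1l at 239.9, Tnfrsf1b at 236.1 and Slc25a45 at 235.7. At the lower bound Snrpb2 (100.2), Cd40 (100.1) and Noc4l (100.1) fell inside and Nrros (99.96), Clec2d (99.9) and Numa1 (99.82) outside. No gap parts the genes inside from those outside at the lower bound.

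**Figure D1:**
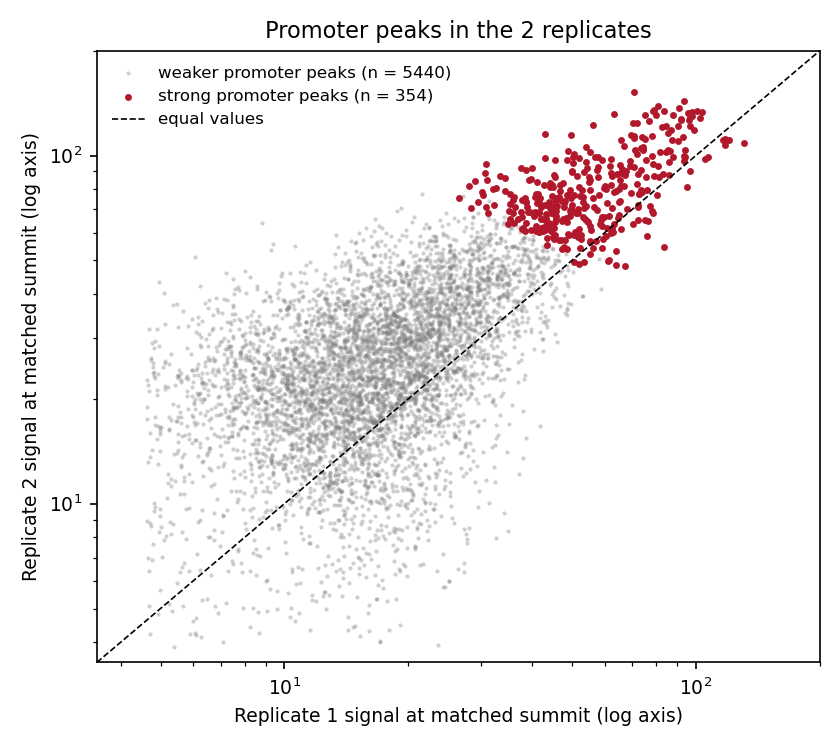
Signal of promoter peaks at matched summits in replicate 1 (horizontal, log axis) and replicate 2 (vertical, log axis), with 354 strong peaks in red, 5440 weaker peaks in grey and a dashed line of equal values. Most red points, 315 of 354, lie above the line.

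The 20 strongest members hold genes of antigen presentation, TNF receptors and genes with no textbook tie to B cells. Cd74 encodes the invariant chain that guides MHC class II molecules, and its peak (mm10 chr18:60803667-60803827) had signal 117.5 in replicate 1 and 111.3 in replicate 2. H2-DMb2, a chain of the chaperone that loads peptide on class II (mm10 chr17:34143081-34143286), had 97.8 and 133.0. Tnfrsf1b (mm10 chr4:145246778-145246964) had 100.8 and 134.3, and Tnfrsf8, which encodes the lymphocyte receptor CD30 and lies on the same chromosome (mm10 chr4:145315190-145315383), had 95.7 and 132.1. These 4 peaks stood within 150 bp of the gene start: 119 bp upstream at Cd74, 49 bp upstream at H2-DMb2, 10 bp downstream at Tnfrsf1b and 133 bp upstream at Tnfrsf8.

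Trim25, a ubiquitin ligase of the RIG-I antiviral pathway (mm10 chr11:88999304-88999459), had signal 97.7 in replicate 1 and 129.6 in replicate 2. H2-Q4, a non-classical MHC class I gene, had 96.7 and 121.9. Plek, which encodes the protein kinase C substrate pleckstrin of blood cells, had 81.0 and 139.0. Replicate 2 was the higher at all of these 3. Gpr18, an orphan receptor of lymphocytes, had 92.2 and 127.0 with its summit 617 bp upstream of the start. Hivep1 had 96.6 and 128.7, 425 bp upstream. Napsa, an aspartic protease gene, had 117.9 and 107.0, 130 bp upstream.

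Rabgap1l, a regulator of Rab GTPases, had the highest value of any member in replicate 1, 130.9, and 108.6 in replicate 2. Abcf2 had 120.5 and 111.0. Tubb6, a beta-tubulin gene, had 116.1 and 111.0. With Cd74 and Napsa these are the 5 of the 20 that were higher in replicate 1. Ddit4l, a relative of the mTORC1 inhibitor REDD1, had the highest value in replicate 2, 152.7, against 70.6 in replicate 1.

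Slc25a45, a mitochondrial carrier gene, had 93.4 and 143.6. Ercc6l, which encodes the mitotic helicase PICH, had 90.8 and 136.9 and was 1 of 3 members on the X chromosome. H1f8, the oocyte linker histone, had 102.6 and 128.6 with its summit 867 bp into the gene side of the start. Zfp830, a zinc finger gene, had 96.5 and 126.4, and the start of the chaperonin gene Cct6b lies within 1 kb of the same summit. Amz2, a metallopeptidase gene, had 91.9 and 126.8, and the predicted gene Gm4606 had 103.2 and 133.6. Of the 20, 6 summits lay within 100 bp of the start. A nearest gene start is a position only, since no expression was measured.

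Some members ranked differently in the replicates. Nup133 (a nuclear pore gene), Gtf2b (the general factor TFIIB), Top3b (a topoisomerase), D16Ertd472e and Arhgap15 (a Rac regulator) had the largest rank gains in replicate 2, with Ncbp3 tied with Arhgap15. At Gtf2b the signal was 30.8 in replicate 1 and 94.6 in replicate 2, and at Nup133 it was 43.0 and 115.2. Cd40, Mpeg1, H4c1, Niban3 and Ms4a1 were the 5 with the largest gain in replicate 1. Ms4a1, which encodes the B cell surface protein CD20, had 83.8 and 54.5, Mpeg1 (perforin-2) had 64.1 and 48.6, and H4c1, a histone H4 gene, had 67.1 and 48.1.

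The 354 peaks lay nearest to 347 genes, and 35 of them had a further start within 1 kb. A peak can therefore serve a further gene: the peak counted for Ifit1 lay nearest to Ifit1bl2, and 1 peak served both Dtx3l and Parp9. For the gene lists, each of 20896 genes with a start was classed by the strongest promoter peak within 1 kb of it. By that count 380 genes had a strongest peak of signal 100 to 250, which is 1.82% of genes with a start and 5.70% of the 6671 genes with any promoter peak. Any promoter peak was present at 31.9% of genes. The lists below were chosen with earlier results of these data known, and the signal itself sorts their genes, so the counts are a description with no test.

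The list of MHC class II and costimulation genes had the largest share of the 24. Of 17 genes for MHC class II and costimulation with a start, 5 (29.4%) had a strong peak: Cd74, H2-DMb2, Ctss, Cd40 and Tnfrsf13b. Ctss encodes cathepsin S, which trims the invariant chain, and its peak had signal 45.6 in replicate 1 and 73.9 in replicate 2. Cd40, the receptor for T cell help, had 64.1 and 53.3 at its stronger peak, and Tnfrsf13b, which encodes the BAFF and APRIL receptor TACI, had 44.1 and 70.8. The class II chain genes H2-Ab1 and H2-Eb1 had weaker peaks of signal 49.1 and 29.1 in the pooled call, where Ctss had 121.1. The median signal of the 12 bound genes of the list was 58.8, against 41.7 over all bound genes.

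For MHC class I presentation 4 of 16 genes (25%) had a strong peak. Psmb8, a subunit of the immunoproteasome, had signal 99.0 in replicate 1 and 118.7 in replicate 2. H2-D1, a classical class I heavy chain, had 83.4 and 88.5. Tapbp encodes tapasin, the bridge to the peptide transporter, and had 44.3 and 81.3, while B2m, the shared light chain, had 41.8 and 72.8. In the pooled call B2m had 111.6 and Tapbp 124, while Psmb10 at 94.4 and Tap2 at 87.2 fell below the bound. The median of the 13 bound genes in that call was 82.4.

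Interferon-stimulated genes gave the most members of any list, 10 of 40 (25%), with a median signal of 82.2 over 30 bound genes. Zbp1, a sensor of Z-form nucleic acid, had signal 75.2 in replicate 1 and 131.0 in replicate 2. Isg20, an exonuclease, had 81.7 and 102.6 at a summit 825 bp upstream, and a further member 562 bp downstream with 45.5 and 69.1. The shared start region of Dtx3l and Parp9 had 71.2 and 103.6. Trim25, the peak at Ifit1, Xaf1, Rnf213 and Dhx58 were also among them. The guanosine triphosphatase genes Gbp3 and Irgm1 lay above the upper bound, at 322.9 and 283.3.

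In the Toll-like receptor pathway the strongest promoter peak of 4 of 22 genes (18.2%) lay within the bounds. Ly86 (MD-1) and Cd180 form a receptor complex of B cells for lipopolysaccharide: Ly86 had signal 86.1 in replicate 1 and 95.9 in replicate 2, and Cd180 had 35.4 and 65.8. Unc93b1, which carries the nucleic acid receptors to endosomes, had 70.8 and 92.5, and Ticam2, an adaptor of TLR4, had 40.6 and 76.1. The strongest peaks of Tlr9 and Tlr4 themselves lay above the upper bound at 268.6 and 251.7. Tlr9, a receptor for DNA, had a member as well, 591 bp downstream of its start, with signal 74.5 in replicate 1 and 103.6 in replicate 2.

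Of 28 genes for B cell receptor signalling, 4 (14.3%) had a strong peak. Blnk, the adaptor below the receptor, had signal 64.0 in replicate 1 and 79.0 in replicate 2. Malt1, a protease that acts in NF-kB activation, had 49.4 and 79.5 at a summit 975 bp upstream. Fcgr2b, the inhibitory Fc receptor, had 59.2 and 66.6, 14 bp upstream. With Ms4a1 these make the 4. A further 20 genes of the list had a weaker peak.

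Migration and adhesion also gave 4 of 28 genes (14.3%). Itgb1, the beta-1 integrin, had signal 75.6 in replicate 1 and 97.4 in replicate 2, and Cxcr5, the receptor that leads B cells to follicles, had 48.7 and 96.8. Itgal, the alpha chain of LFA-1, had 38.7 and 91.1, and Dock2, an activator of Rac, had 53.8 and 65.7. Of the IRF family 2 of 9 genes (22.2%) were members: Irf2, a repressor at interferon-responsive sites, with 52.1 and 98.3, and Irf9, the DNA-binding part of ISGF3, with 39.9 and 85.5. Irf4 itself had a weaker promoter peak, 46.8 in the pooled call, where Irf9 had 124.8. Of 23 genes for NF-kB and TRAF proteins the members were Nfkbia, the inhibitor IkB-alpha, with 55.1 and 84.8, and Nfkb1 (p105), with 48.0 and 57.3.

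Lists of other functions gave few members or none, with shares of up to 4.76% (ETS factors) in this paragraph against 1.82% of all genes. Most of these lists are short, so 1 member or none says little about the share. Of 25 B cell transcription factor genes, none had a strong peak although 13 had a weaker one, led by Tcf4 at 71.2, Pou2af1 at 68.2, Mef2b at 60.3 and Pou2f1 at 53.5 in the pooled call. AP-1 and BATF factors, BCL2 family and death genes, chromatin modifiers, glycolysis, Rab GTPases and neuron genes had no member either. Ribosomal proteins gave 2 of 72 genes, Rpl23a and Rps3a1, with 50 bound in all. Single members were Etv6 among ETS factors, Stat3 among cytokine receptor and JAK-STAT genes, Mdm2 (the ligase of p53) in the cell cycle list, Atf6 in the unfolded protein response, Psmb6 in the proteasome and Srsf11 in splicing. Socs1 of the JAK-STAT list lay above the upper bound at 255.7. The lists are not complete: the cytokine receptor genes Il12rb1 and Ifnlr1, on none of them, were members at 215.2 and 161.4 in the pooled call. Nfkbid, also on none, had 199.2.

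Markers of other blood cells were read at the same promoters. Of 6 B cell markers 4 had a promoter peak and 1, Ms4a1, a strong one, while none of 5 T cell markers and none of 5 myeloid markers had any. Of the wider lists, 5 of 21 T cell genes and 2 of 17 myeloid genes had a promoter peak, and each list gave 1 member: Ctla4 with signal 44.0 in replicate 1 and 63.4 in replicate 2, and Cd68 with 48.5 and 64.4. These counts depend on which genes were listed. Cd2 and Itgax, a T cell and a myeloid surface gene on none of the lists, were members at 175.6 and 185.4 in the pooled call. Peaks do not measure expression, so the markers bear on the label of the line only as positions. Genes of the H2, Slfn, Gbp and Ifit families have near copies, and how the authors treated reads that match several of them is not given in the sources used here. Their values are uncertain.

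**Figure D2:**
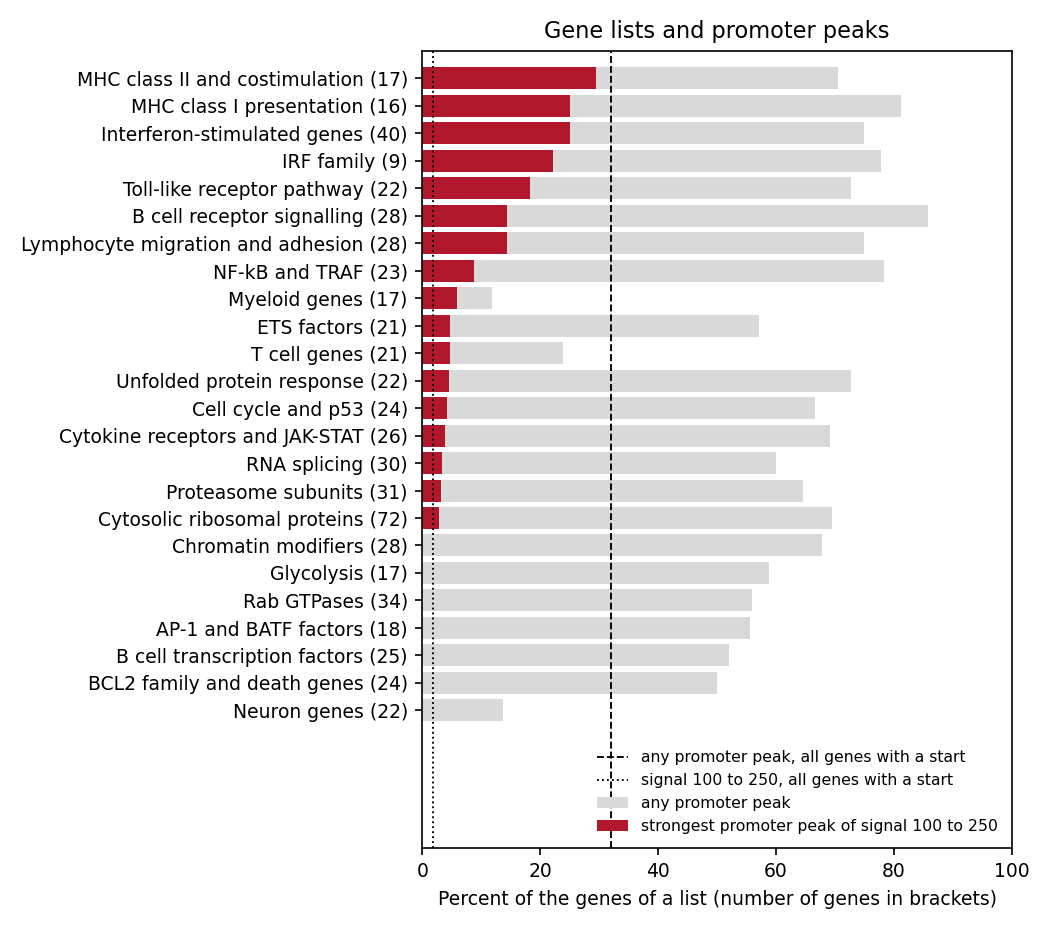
Share of each gene list (percent of its genes with a start, number in brackets) with any promoter peak in grey and with a strongest promoter peak of signal 100 to 250 in red, with lines for all genes at 31.9% (dashed) and 1.82% (dotted). MHC class II and costimulation reaches 29.4% in red, and 7 lists show no red bar.

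Sequence was not used by the rule and can be tested. An EICE lay within 50 bp of the summit at 43 of 275 strong windows, 15.6% (95% Wilson interval 11.8 to 20.4), and at 80 of 2321 weaker windows, 3.45% (2.78 to 4.27). The odds ratio was 5.19 (95% interval 3.5 to 7.70; two-sided Fisher's exact test, adjusted p = 5.5e-13 over 7 planned comparisons). Windows came from the mm9 list and were given the class of the mm10 peak at the gene of the same name, 1 window for each mm9 summit. Genes with no promoter peak in the mm9 list gave no window. The 275 strong windows came from 380 genes with a strong peak, and the 2321 weaker windows from 6269 genes with a weaker one. The weaker share therefore covers only weaker genes that also had a peak in the mm9 list. Over all 27671 mm9 summit windows of this length, 8.68% held an EICE.

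Of the members themselves, 41 of the 262 whose nearest gene had a window were credited with an EICE and 22 with an ISRE. The credit went by gene, so both members of a gene with a pair, such as Isg20 or Slfn8, share 1 window. Among the 20 strongest, 16 had a window, and 6 were credited with an EICE in this way: Rabgap1l, Cd74, H2-DMb2, Ercc6l, Trim25 and Gpr18. Both elements occurred at Psmb8, Unc93b1, Irf2 and Mov10, the last named after its values were seen as an antiviral helicase gene. Zbp1, B2m and Dhx58 held an ISRE, and Isg20, Fcgr2b and Cd68 an EICE. Read over 38 genes, the EICE lay a median of 14.5 bp from the mm9 summit, and at 28 of them within 25 bp. Rabgap1l and Ptk2, both credited by gene, are not among the 38, so no EICE position is given for their peaks. Some of these genes, such as Cd74, had no RefSeq promoter sequence by which to check the site across builds. Of 201 strong windows checked to be at the same site, 32 held an EICE and 17 an ISRE. The ISRE had 25 matches at 21 genes with a median of 17.5 bp. At 14 of 38 EICE matches the element with its ETS core first lay on the strand of the gene.

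Of 19 motifs tested, 5 were more frequent in strong windows (26.3%) and 1 less frequent (5.26%) at a Benjamini-Hochberg adjusted p under 0.05. The ISRE was found in 8.36% of strong and 3.02% of weaker windows, an odds ratio of 2.94 (95% interval 1.8 to 4.79; Fisher's exact test, adjusted p = 3.9e-04). AP-1 (TGANTCA) was found in 10.2% and 4.09%, odds ratio 2.66 (1.71 to 4.13; Fisher's exact test, adjusted p = 3.7e-04). The ETS-type word GGAAGTGA, which can overlap an EICE, was found in 9.45% and 4.52%, odds ratio 2.20 (1.41 to 3.45; Fisher's exact test, adjusted p = 0.0043). The AICE with a gap of 4 bases was rare, 3 of 275 against 2 of 2321, odds ratio 12.8 (2.13 to 76.9; Fisher's exact test, adjusted p = 0.032). Within deciles of GC content that ratio was 5.16 (0.88 to 30.3), which includes 1. The GC box (GGGCGG), a site of SP factors, was the 1 that was less frequent, 13.5% against 27.9%, odds ratio 0.40 (0.28 to 0.58; Fisher's exact test, adjusted p = 6.3e-07).

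The other motifs did not pass. The ETS site ACTTCCGG of housekeeping promoters was in 5.45% of strong and 7.02% of weaker windows, odds ratio 0.76 (0.44 to 1.32; Fisher's exact test, adjusted p = 0.49). CCAAT, the site of NF-Y, was in 10.2% and 10.6%. The EICE read backwards, a control, was in 1.09% and 0.86%, odds ratio 1.27 (0.37 to 4.30). The ISRE read backwards, the other control, was in 2.91% and 1.25%, odds ratio 2.37 (1.07 to 5.23; Fisher's exact test, adjusted p = 0.12), close to the value of the ISRE itself. Over all 27671 mm9 windows the ISRE was in 5.79%, AP-1 in 16%, GGAAGTGA in 6.81%, the GC box in 6.17%, ACTTCCGG in 1.21% and the AICE with the gap in 1.12%.

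**Figure D3:**
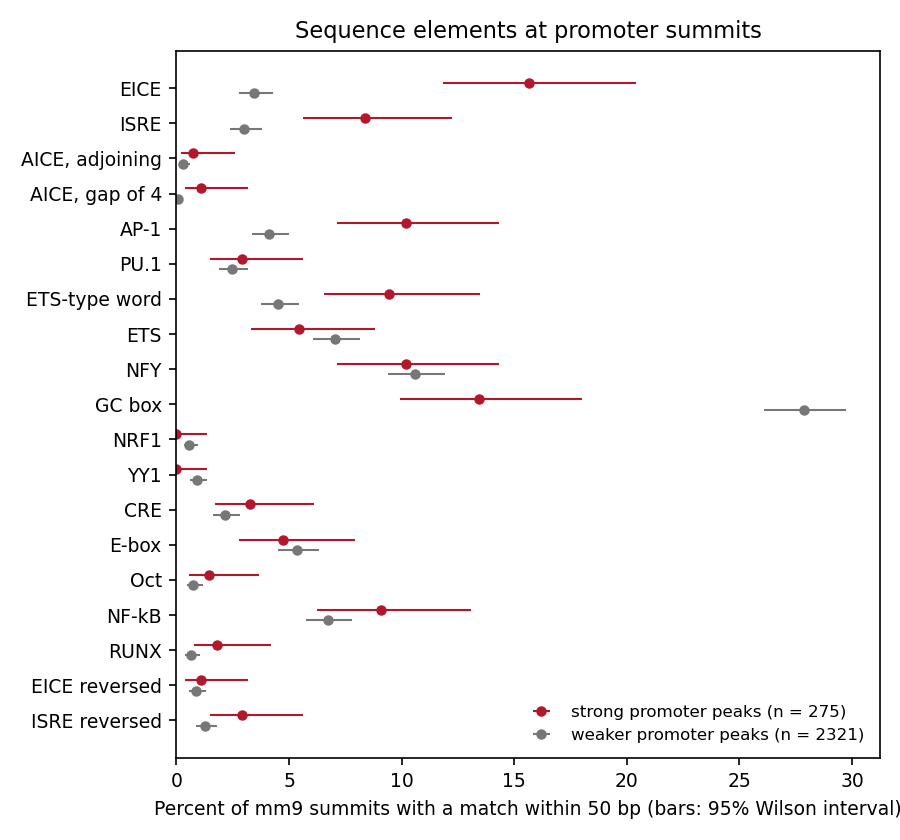
Percent of mm9 summit windows (horizontal) with a match to each of 19 motifs, for strong promoter peaks in red and weaker in grey, with 95% Wilson intervals. EICE is higher in the strong peaks, 15.6% against 3.45%, and the GC box is lower, 13.5% against 27.9%.

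Strong and weaker windows differed in base composition, so each motif was also compared within deciles of GC content. The EICE odds ratio was then 3.57 (95% interval 2.38 to 5.35) and that of the ISRE 1.73 (1.05 to 2.85). AP-1 had 1.70 (1.08 to 2.67) and the GC box 0.65 (0.45 to 0.95). The ISRE read backwards had 1.77 (0.79 to 3.94), as high as the ISRE itself. Some mm9 summits lay at another site than the mm10 peak. Over windows checked to be at the same site, the EICE had 3.53 (2.19 to 5.70) within GC deciles. The ISRE then had 1.64 (0.91 to 2.98), AP-1 1.32 (0.74 to 2.35) and the GC box 0.66 (0.42 to 1.03). The intervals of the ISRE, AP-1 and the GC box there include 1. The RefSeq promoter sequences, 250 bases before to 50 after each start on GRCm38, do not depend on where a summit lies. There an EICE was in 25 of 308 strong genes (8.12%) and in 114 of 5226 weaker genes (2.18%), odds ratio 3.96 (2.53 to 6.21; Fisher's exact test, adjusted p = 1.2e-06). The ISRE was in 7.47% and 3.16%, odds ratio 2.48 (1.58 to 3.89; Fisher's exact test, adjusted p = 0.0018), and the GC box in 50.7% and 65.9%, odds ratio 0.53 (0.42 to 0.67; adjusted p = 1.2e-06). These were the 2 higher (10.5%) and the 1 lower (5.26%) of the 19 motifs. Over all 17274 RefSeq promoters 2.67% held an EICE, 3.43% an ISRE and 46.9% a GC box.

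The promoters themselves differed in CpG content. An observed to expected CpG ratio above 0.6, called CpG-rich here and typical of broadly used genes, was found in 200 of 308 strong promoters, 64.9% (95% Wilson interval 59.5 to 70.1), and in 4098 of 5226 weaker ones, 78.4% (77.3 to 79.5). The odds ratio was 0.51 (0.40 to 0.65; Fisher's exact test, adjusted p = 5.2e-07 over 7 comparisons). Of the genes above, Isg20 (0.055), H2-DMb2 (0.15), Slfn2 (0.11) and Mpeg1 (0.18) had low ratios, and Nup133 (1.00), Gtf2b (1.02), Hivep1 (0.87) and Abcf2 (0.84) high ones.

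The EICE difference was present in both kinds of promoter. In CpG-rich promoters an EICE lay at 10.9% of strong and 2.32% of weaker summits, odds ratio 5.13 (2.71 to 9.71), and in CpG-poor ones at 24.7% and 7.11%, odds ratio 4.28 (2.25 to 8.13). The ISRE was at 16.4% of strong and 6.44% of weaker summits in CpG-poor promoters, odds ratio 2.86 (1.38 to 5.89), and at 3.62% and 2.04% in CpG-rich ones, odds ratio 1.81 (0.69 to 4.74), an interval that includes 1. Whether the odds ratios differ between the kinds was not tested.

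Among the promoter peaks the element shares also moved with signal inside the bounds. An EICE was at 12.4% of 185 windows of signal 100 to 150 (95% Wilson interval 8.43 to 18.0) and at 22.2% of 90 windows of signal 150 to 250 (14.9 to 31.9), intervals that overlap. From 75 to 100, just under the bound, it was at 6.34% (4.19 to 9.50). The ISRE was at 5.95%, 13.3% and 5.44% in the same order. ACTTCCGG was at 15 of the 185 windows and at 0 of the 90, and 0 of 90 has an upper Wilson bound of 4.09%. CpG-rich promoters were 67.3% of 208 genes at signal 100 to 150 and 60% of 100 genes at 150 to 250. These shares are a description over bins, with no test of trend.

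**Figure D4:**
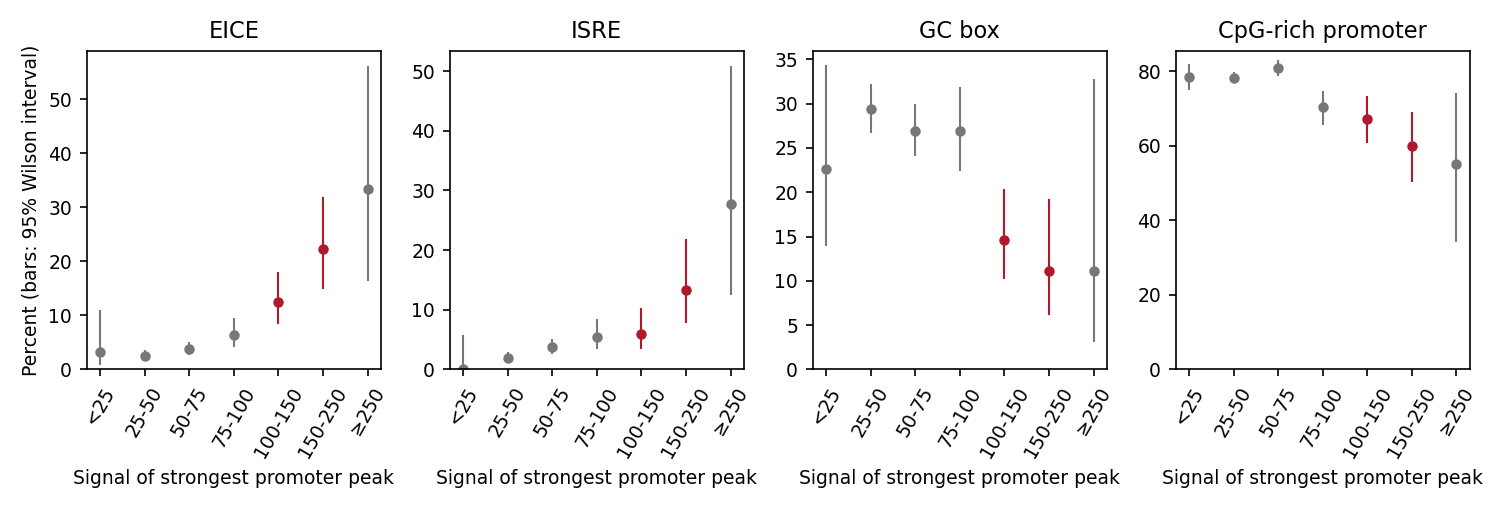
Percent of windows with an EICE, an ISRE or a GC box, and of genes with a CpG-rich promoter, by the signal of the strongest promoter peak, with 95% Wilson intervals and the bins from 100 to 250 in red. The EICE share is 12.4% and 22.2% in the red bins and 6.34% in the bin below.

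Peaks as strong but far from genes served as a second comparison. Since sequence came from mm9, promoter and distal peaks (over 10 kb from any start) were taken at the same ranks of the mm9 list as signals 100 to 250 hold in the optimal list. An EICE lay at 35 of 168 promoter summits, 20.8% (95% Wilson interval 15.4 to 27.6), and at 411 of 2338 distal ones, 17.6% (16.1 to 19.2). The odds ratio was 1.23 (0.84 to 1.82; Fisher's exact test, adjusted p = 0.35), so a difference within that interval was not detected. The ISRE was in 14.3% of promoter and 6.97% of distal windows, odds ratio 2.22 (1.40 to 3.53; Fisher's exact test, adjusted p = 0.0081), and AP-1 in 13.1% and 27.0%, odds ratio 0.41 (0.26 to 0.64; Fisher's exact test, adjusted p = 3.4e-04).

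Of the 19 motifs 4 were more frequent at the promoters (21.1%) and 1 less (5.26%). Beside the ISRE these were the GC box (odds ratio 5.28), the E-box CACGTG (odds ratio 3.98) and NF-kB (odds ratio 2.15). Within deciles of GC content the GC box had 2.61 (1.42 to 4.81), the E-box 2.73 (1.18 to 6.32) and NF-kB 1.55 (0.90 to 2.66), the last an interval that includes 1. The ISRE difference did not pass with a promoter window of 2500 bp (odds ratio 1.59, Fisher's exact test, adjusted p = 0.10) or a motif window of 25 bp (2.32, adjusted p = 0.059). AP-1 lost its call with a lower signal bound of 150 (0.39, Fisher's exact test, adjusted p = 0.060).

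Summits of the strong peaks lay as often as those of weaker peaks close to the start. Within 100 bp were 141 of 354, 39.8% (95% Wilson interval 34.9 to 45.0), and 2872 of 7262, 39.5% (38.4 to 40.7), odds ratio 1.01 (0.81 to 1.26; Fisher's exact test, adjusted p = 0.91). Trim25, Zbp1, Ly86, Fcgr2b and Tnfrsf1b were among these. Its direction and call changed with the window, the bound and the comparison set: the odds ratio was 0.68 against weaker peaks of signal 50 to 100 only, 0.64 with a bound of 150 and 1.21 with a bound of 80, each past the test. From 100 to 250 bp lay 16.1% of strong (12.6 to 20.3) and 24.4% of weaker summits (23.5 to 25.4), and from 500 to 1000 bp 24.6% (20.4 to 29.3) and 19.4% (18.5 to 20.3). Upstream of the start were 202 of 354, 57.1% (51.9 to 62.1), against 49.8% (48.7 to 51.0); these last shares were compared by their intervals only.

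**Figure D5:**
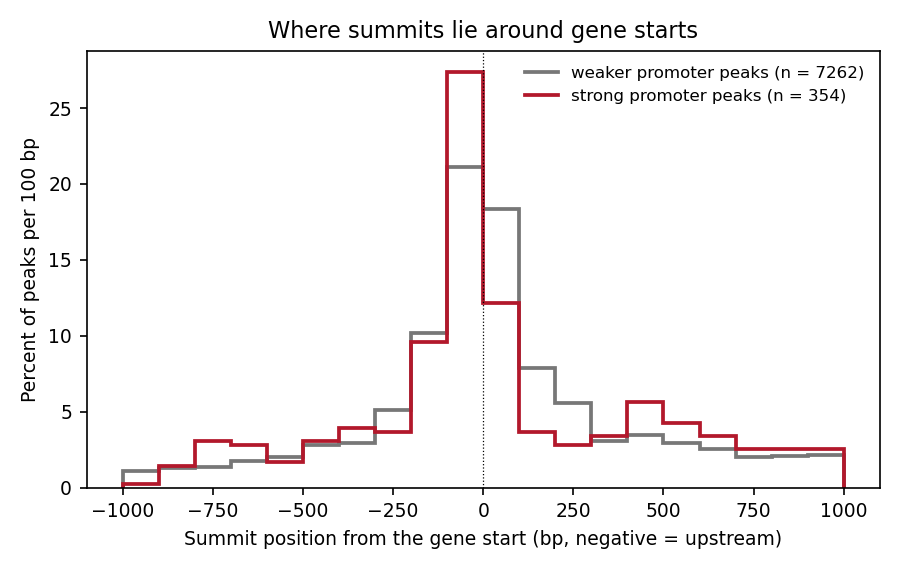
Percent of summits per 100 bp (vertical) by position from the gene start (horizontal, bp, upstream negative), for 354 strong promoter peaks in red and 7262 weaker in grey. Both peak at the start, and 16.1% of strong against 24.4% of weaker summits lie 100 to 250 bp away.

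A start on the other strand within 1 kb, the mark of a divergent promoter, was found for 72 of 380 genes with a strong peak, 18.9% (95% Wilson interval 15.3 to 23.2), and for 1355 of 6269 with a weaker one, 21.6% (20.6 to 22.7). The odds ratio was 0.85 (0.65 to 1.10; Fisher's exact test, adjusted p = 0.35). It passed without chromosomes 11 and 16 (0.72, Fisher's exact test, p = 0.047) and with a promoter window of 2500 bp (0.76, p = 0.019).

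Many strong peaks had company. Another optimal summit lay 2 to 20 kb away at 267 of 354 strong peaks, 75.4% (95% Wilson interval 70.7 to 79.6), and at 67.4% of weaker ones (66.3 to 68.5), odds ratio 1.48 (1.16 to 1.90; Fisher's exact test, adjusted p = 0.003). Tnfrsf13b had the most, 15 such summits around each of its members, and Amz2 had 9 around its stronger one. Ercc6l, Zbp1, Tubb6 and H2-Q4 had none. The difference did not pass for a reach of 50 kb (1.13, Fisher's exact test, p = 0.64) or a bound of 150 (1.35, p = 0.18).

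Members stood on every chromosome tested, from 65 on chromosome 11 to 3 on X. Chromosomes 11 and 16, chosen because earlier results of these data gave them the most peaks per length, held 82 of 354 strong peaks, 23.2% (95% Wilson interval 19.1 to 27.8), against 16.6% of weaker ones (15.7 to 17.4). The odds ratio was 1.52 (1.18 to 1.961; Fisher's exact test, adjusted p = 0.003). It was 1.14 (Fisher's exact test, p = 0.36) against weaker peaks of signal 50 to 100 only and 1.37 (p = 0.20) with a bound of 150, neither of which passed. The choice of chromosomes came from these data, so the adjusted p does not test a question set beforehand. Of the promoter peaks below signal 250, 65 of 934 on chromosome 11 (6.96%) and 17 of 350 on chromosome 16 (4.86%) were members. Chromosome 3 had 6.89% and chromosome 2 6.29%. Chromosomes 1 (5.49%), 14 (4.91%) and 18 (4.91%) also stood above chromosome 16, so the pooled value shows no excess on chromosome 16 by itself. On chromosome 11 lay Trim25, Plek, Zfp830, Amz2, Tnfrsf13b, Stat3, Dock2 and the Slfn genes, and on chromosome 16 Dtx3l. Slfn8, with 2 members, and Slfn2, Schlafen genes induced by interferon, formed a run of 3 members with no gap over 100 kb, with signals from 107.3 to 161.2 in the pooled call.

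Pairs of members occurred at 7 genes: Isg20, Amz2, Gm4606, Ell3, Slfn8, Cd40 and Tnfrsf13b. At Cd40 the summit 351 bp upstream had signal 64.1 in replicate 1 and 53.3 in replicate 2, and that 958 bp downstream had 43.6 and 57.9. At Ell3, an elongation factor gene, the summit 357 bp upstream had 90.6 and 121.4, and that 641 bp downstream 54.4 and 65.0. The upstream member was the stronger at all 7 genes in the pooled call.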

How the data were processed

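The authors deposited narrowPeak lists of IRF4 ChIP-seq in 2 biological replicates. Per the file headers and the descriptions deposited with them, relaxed mm10 lists came from the alignments of each replicate and of both pooled, the optimal and conservative IDR lists came from those, and the mm9 list came from both replicates together. The signal in each deposited list is the authors' own caller value, and the authors' summit offset is a position in bases, unit other. The sources used here do not name the aligner, the caller or the IDR threshold.

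Gene starts were those of 21631 RefSeq protein-coding genes of GRCm38 on the chromosomes tested. A strand, and so a start, was had for 20896 of them, 17274 from the RefSeq promoter table and 3622 from GENCODE, matched by symbol and chromosome. Of 14612 genes with both, 39 disagreed. The optimal list had 44047 peaks on these chromosomes. Replicate signals are those of the nearest summit within 100 bp.

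No mm10 genome was used here, so windows of 101 bases were read on mm9 (NCBIM37), and no coordinate was converted. Where the RefSeq promoter had 1 match in mm9, the mm9 summit lay within 100 bp of the mm10 site for 201 of 210 strong windows (95.7%) and 1511 of 1854 weaker ones (81.5%). The test between classes was Fisher's exact test, two-sided, with Wilson intervals and Benjamini-Hochberg adjustment over 7 comparisons or 19 motifs, a threshold of 0.05 and a continuity correction of 0.5 for empty cells. Odds ratios within GC deciles are Mantel-Haenszel estimates.

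The members and lists were chosen with earlier results of these data known. The genes named were the 20 members of highest signal, the 4 highest members of each list, the 3 peaks either side of each bound and the 5 largest rank differences each way; sequences came from up to 8 of the highest members with an element, with members on chromosome 18 passed over. A few of these are not reported here. Members named beyond that, such as those sharing a start, holding several peaks or having many neighbours, and the contrast sequences at Abcf2 and Hivep1, were picked after their values were seen. Tools were scipy 1.17.1 and numpy 2.4.6 in Python 3.11.15, with matplotlib 3.10.9 and pandas 2.3.3, and the tests were tried on simulated data.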

Additional observations from a re-analysis of the deposited data

How the results depend on the processing

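In all, 176 alternative values were computed for the tested results, and 149 of them kept their direction and side of the threshold (counts within 1.5 times). The EICE odds ratio of strong against weaker promoter peaks was 3.57 to 8.82 over 15 alternatives, and that of CpG-rich promoters 0.42 to 0.63 over 10. Both passed in every one of these. The lowest EICE value came within GC deciles and the highest, chosen after seeing the data, from mm10 summits inside RefSeq promoter sequences.

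The number of strong promoter peaks was 354, and 592 with a promoter window of 2500 bp, 637 with a lower bound of 80 and 111 with a bound of 150. The odds ratio for summits within 100 bp of the start was 1.01, and 0.74 (2500 bp window), 1.21 (bound of 80), 0.64 (bound of 150), 0.94 (conservative list), 0.87 (without chromosomes 11 and 16), 0.82 (reach of 200 bp) and 0.68 (weaker peaks of signal 50 to 100 only, added after seeing the data). Leaving out each replicate gave 0.84 to 1.00 for it. The divergent start odds ratio was 0.76 (2500 bp window) and 0.72 (without chromosomes 11 and 16). The neighbouring summit odds ratio was 1.35 (bound of 150) and 1.13 (reach of 50 kb), and that for chromosomes 11 and 16 was 1.37 (bound of 150) and 1.14 (weaker peaks of 50 to 100 only). The EICE odds ratio against distal peaks was 0.94 with a 500 bp window. Motifs that passed in RefSeq promoters numbered 3, and 6 with a bound of 80 and 5 within GC deciles. At summits they numbered 6, and 2 in mm10 windows, which numbered 128 strong and 2416 weaker, with AP-1 at 1.09, the GC box at 0.58 and GGAAGTGA at 1.81 no longer passing. The causes were not tested.

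The chromosome result has no value without chromosomes 11 and 16, and the number of peaks is fixed by construction when a replicate is left out. No paired analysis was possible because the labels give 1 group. Depth per replicate is unknown, and 275 strong windows limit the rare motifs.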

Other observations

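Members of several other gene groups were not in the lists described above, and are named here after their values were seen. Cytokine genes were present: Il4, the switch factor of T cell help, had signal 83.8 in replicate 1 and 134.5 in replicate 2 at a summit 365 bp upstream of its start, with 12 further summits 2 to 20 kb away. Il12rb1, a chain of the IL-12 receptor, had 78.9 and 135.5, and Il15, a cytokine for lymphocyte survival, had 44.7 and 63.3 with an ISRE in its window. Replicate 2 was the higher at each of these 3. Bank1, a B cell scaffold protein, had 65.3 and 84.9 with an EICE, and Nfkbid, an atypical IkB protein, had 94.2 and 103.6. Gbp5, a guanylate-binding protein, had 48.9 and 102.9 with an ISRE.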
